A study of Mus musculus with 20 samples.

Results

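The 8 genes described here encode proteins that carry fructose and glucose into the liver cell and through the steps of sugar breakdown that the liver controls: Slc2a2, Khk, Tkfc, Sord, Gpi1, Pfkl, Pfkfb1 and Pklr. They were taken by gene symbol from the deposited table, where they are 8 of 46095 rows, and all 8 passed the filter on low counts, which kept 14440 genes. RNA sequencing was done on whole livers of 20 mice aged 31-33 weeks, in 4 groups of 5: wild-type mice (WT) fed chow, WT mice fed a NASH diet (one that induces non-alcoholic steatohepatitis), Pck1-cKO mice (KO) fed chow, and KO mice fed the NASH diet. Each diet was given for 24 weeks. Pck1 encodes cytosolic phosphoenolpyruvate carboxykinase, an enzyme of glucose synthesis, and the series title calls the knockout liver-specific. The sources used here do not name the transgene that drives the deletion, the strain or the sex of the mice. The study was designed to look at the role of Pck1 in steatohepatitis caused by diet, and the comparisons here are those of diet within a genotype, of genotype within a diet, and the interaction of both.

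Fructose and glucose enter hepatocytes largely through GLUT2, the transporter encoded by Slc2a2. Fructose is phosphorylated by ketohexokinase, and the glyceraldehyde later released from it is phosphorylated by triokinase, so that fructose carbon joins glycolysis below phosphofructokinase, the step at which glucose breakdown is held back. Both sugars leave glycolysis through liver pyruvate kinase, whose gene is a well known target of the sugar-sensing transcription factor ChREBP, encoded by Mlxipl.

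Library totals ranged from 9958935 to 20601955 counts, so that 1 CPM (a read count relative to the library total after adjustment by TMM factors) stood for 6.80 to 24.9 counts. Pck1 was at 3570 ± 1138 CPM (SD, n = 5) in WT chow and 626 ± 174 CPM in KO chow, and at 2288 ± 511 and 444 ± 112 CPM in WT and KO on the NASH diet, and in each diet every KO library lay below every WT library. Counts of 4 Y-linked genes marked 13 libraries as male: all 5 of WT chow, 1 of WT NASH (replicate 4), 3 of KO chow and 4 of KO NASH. Diet and sex were therefore nearly one and the same contrast in WT mice. Genotype on the NASH diet also went largely with sex, with 1 male and 4 females in WT and 4 males and 1 female in KO. In 6 libraries (WT chow replicates 3, 4 and 5, WT NASH replicate 4, KO chow replicates 4 and 5) longer genes had lower CPM than in the average library, and the slope of log2 CPM on log2 exonic length was -0.33 to -0.24, against 0.0096 to 0.19 in the other 14. KO NASH replicates 1 and 5 were the closest pair of libraries, but differed by more than sampling noise and were kept apart. The labels do not say whether replicates were collected together, and p-values measure only the spread between these mice. In whole liver, fewer cells of a type and less RNA per cell cannot be told apart.

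Of the 8 genes, Khk, Tkfc and Pklr were lower in KO than in WT livers on the NASH diet, by 2.15-fold, 2.03-fold and 6.14-fold. Pklr was also 3.03-fold higher in WT livers on the NASH diet than on chow, and Pfkl was 1.98-fold higher in KO livers on the NASH diet than on chow. Calls are at a Benjamini-Hochberg adjusted p under 0.05 in edgeR's quasi-likelihood test over all 14440 genes. For WT NASH against WT chow, 1 of the 8 genes was called, higher, beside 5.93% of all genes tested and 2.69% called higher. None of the 8 was called for KO chow against WT chow, where 5.53% of genes were. At an unadjusted p under 0.05 there were 3 (Khk, Pklr and Gpi1), beside 19.4% of all genes. DESeq2 called 1 (9.63% of all genes) and limma voom with sample quality weights called 3 (40.4% of all genes). For KO NASH against WT NASH, 3 of the 8 were called, all lower, beside 9.65% of genes called and 4.74% called lower. For KO NASH against KO chow, 1 was called, higher, beside 3.29% and 1.77% called higher. For the interaction (the genotype difference on the NASH diet minus the one on chow) edgeR called none, beside 0.139% of genes. At an unadjusted p under 0.05 there was 1 (Pklr), beside 8.25% of all genes, while DESeq2 called 0 (1.31% of all genes) and limma voom called 1 (Gpi1, 13.5% of all genes). The median log2 difference of KO NASH from WT NASH was -0.31 over the 8 genes and 0.00 over all genes, with 3 of 8 above 0, and for WT NASH against WT chow it was 0.29 and 0.01, with 5 of 8 above 0.

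**Figure D1:**
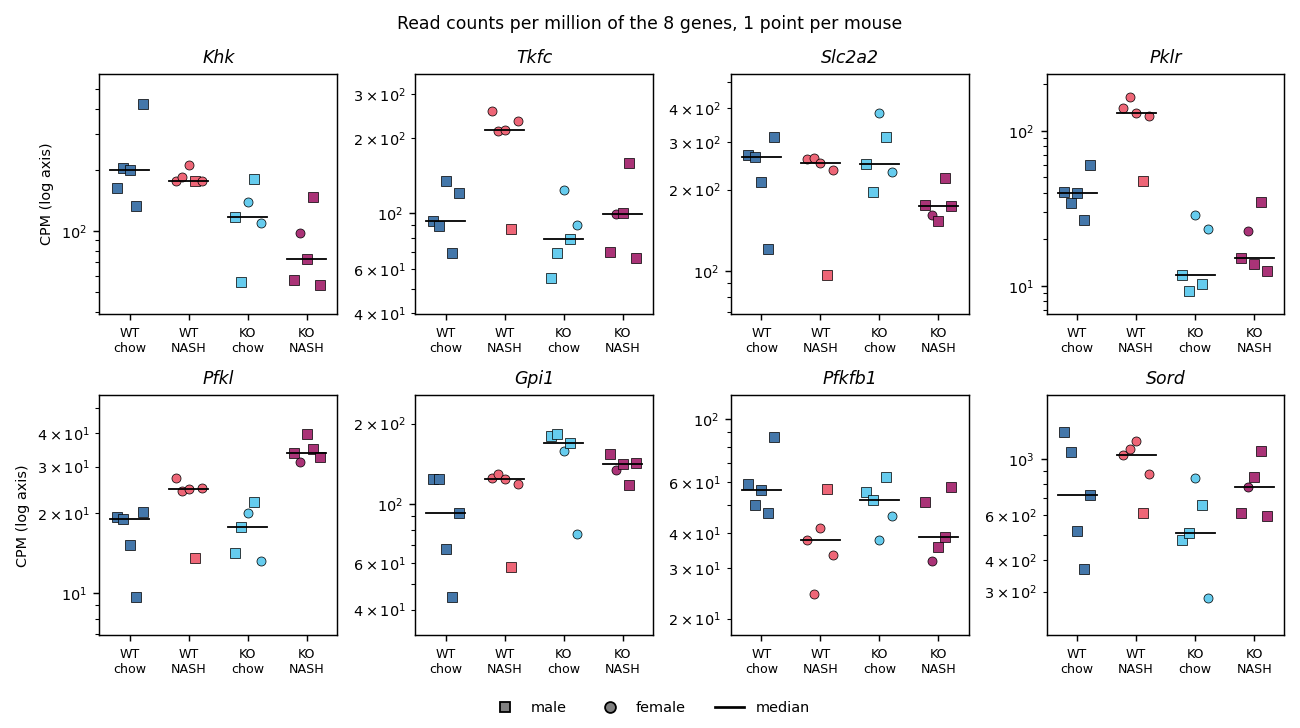
CPM (log axis, a separate scale per panel) of the 8 genes in each of 20 livers, with squares for male and circles for female libraries as read from Y-linked counts, and a bar at each group's median. Pklr and Khk in KO NASH lie below all WT NASH livers, and WT NASH replicate 4, the square of its group, is the lowest WT NASH point for Tkfc, Slc2a2, Pklr, Pfkl, Gpi1 and Sord.

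The promoters of the 3 genes that were lower together in KO NASH are shown first, from RefSeq's table for GRCm38.p6, in which all 8 genes have an entry. The 3 motifs searched were looked for on both strands in the 250 bases before each start: CACGTG, the E-box that forms the core of carbohydrate response elements; GTTAAT, a core of the HNF1 motif; and CAAAGTC, a core of the HNF4A motif. CACGTG was in 6.02% of all 32851 windows of that length, GTTAAT in 6.43% and CAAAGTC in 3.84%. For Pklr the window before the second of 2 starts is shown, the one that liver uses, without its exonic part (chr3:89136373-89136571, plus strand). The capitals mark CACGGG and CCCGTG, 5 bases apart, a pair that resembles 2 E-boxes and was read off this window itself, so that its presence in 1 of 32851 windows is a description. For Tkfc (chr19:10604274-10604508, minus strand) the capitals mark the HNF4A core, 123 to 117 bases before the RefSeq start. In the GENCODE positions used elsewhere here, Tkfc begins further upstream, at 10605654. By those positions the stretch shown lies inside the gene, between its exons. For Khk only the stretch with both of its motifs is shown (chr5:30921488-30921504, plus strand, 71 to 55 bases before the RefSeq start), an E-box and an HNF1 core. In GENCODE, Khk begins at 30921431 and 128 of the 250 bases are exonic, so that both motifs lie within an exon there.
Pklr: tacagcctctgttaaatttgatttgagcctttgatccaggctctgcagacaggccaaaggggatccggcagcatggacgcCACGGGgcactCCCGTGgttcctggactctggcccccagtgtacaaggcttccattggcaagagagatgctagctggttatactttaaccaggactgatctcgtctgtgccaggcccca
Tkfc: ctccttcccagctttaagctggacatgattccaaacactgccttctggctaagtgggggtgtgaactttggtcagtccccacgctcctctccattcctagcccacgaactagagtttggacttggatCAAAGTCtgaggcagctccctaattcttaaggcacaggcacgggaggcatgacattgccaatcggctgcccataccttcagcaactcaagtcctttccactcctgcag
Khk: CACGTGacaccGTTAAT
In the windows of Slc2a2, Pfkl, Gpi1 and Sord none of these letters occurred, and in Pfkfb1 only the window before the third of 4 starts held GTTAAT. Of the 3 genes lower in KO NASH, only Khk had the exact E-box.

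Slc2a2 (chr3:28697903-28731359, plus strand, GRCm38) encodes GLUT2, the low-affinity transporter that lets glucose and fructose pass in both directions. In WT livers it was at 236 ± 73.5 CPM on chow and 220 ± 70.0 CPM on the NASH diet, and in KO livers at 275 ± 74.3 and 177 ± 26.2 CPM (SD, n = 5). No comparison was called. The lowest edgeR adjusted p was 0.184, for KO NASH against KO chow, where the log2 fold change was -0.64 (SE 0.277) and the groups overlapped, at 153 to 221 CPM against 196 to 383 CPM. Without the 6 libraries of negative length slope, a setting added after the data were seen, the same log2 fold change was -0.64 and was called (adjusted p = 0.0478), and that of KO NASH against WT NASH was -0.51 (adjusted p = 0.0485).

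Khk (chr5:30921431-30931248, plus strand) encodes ketohexokinase, which phosphorylates fructose to fructose 1-phosphate without feedback from the cell's energy state. In WT chow the 5 livers had 162, 204, 200, 133 and 424 CPM. In WT NASH they had 175, 185, 212, 177 and 176 CPM. The WT NASH livers thus lay within the range of WT chow and closer together, with an SD of 15.7 against 115 CPM, and the highest value was WT chow replicate 5. In KO chow the values were 116, 56.0, 139, 181 and 109 CPM. In KO NASH they were 57.5, 97.8, 72.3, 147 and 54.4 CPM. All 5 KO NASH livers were below all 5 WT NASH livers, and 14.1% of all genes did not overlap between these groups, in either direction. On chow the genotypes overlapped. KO NASH was lower than WT NASH, the log2 difference being -1.11 (SE 0.334, edgeR adjusted p = 0.0409). On chow the difference was -0.90 (SE 0.332, edgeR adjusted p = 0.124), and the 2 differences were not told apart by the interaction (-0.21, SE 0.467, edgeR adjusted p = 0.965). Leaving out single libraries moved the chow difference from -1.10 to -0.53. With sex in the fit the NASH value was -1.03 (edgeR adjusted p = 0.12), and in male livers alone, with 1 WT NASH male, it was -1.06 (edgeR adjusted p = 0.282), which ended the call at much the same size. The call was also lost on leaving out any 1 library of these 2 groups except KO NASH replicate 4, at log2 fold changes of -1.16 to -0.97. Without KO NASH replicate 4 it was -1.39 (edgeR adjusted p = 0.0162).

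Tkfc (chr19:10587791-10605654, minus strand) encodes triokinase, which phosphorylates the glyceraldehyde released from fructose 1-phosphate. In WT chow it was at 93.1, 89.2, 134, 69.4 and 121 CPM. In WT NASH it was at 258, 213, 216, 86.9 and 234 CPM, where the 4 livers above 200 were the females and the fourth library, the male, lay among the chow livers. That library was also the only one of WT NASH with a negative length slope, so sex and slope cannot be told apart there. In KO chow the values were 55.3, 69.3, 124, 79.4 and 89.5 CPM, replicates 3 and 5 being female. In KO NASH they were 70.4, 99.7, 100, 159 and 66.6 CPM, replicate 2 being female. The KO groups on both diets thus overlapped WT chow. KO NASH was lower than WT NASH, the log2 difference being -1.02 (SE 0.299, edgeR adjusted p = 0.0358), with the groups overlapping through WT NASH replicate 4. WT NASH against WT chow was 0.99 (SE 0.299) and was not called (edgeR adjusted p = 0.0538). Neither was called once sex entered the fit. They were then -0.53 and 0.39 (edgeR adjusted p = 0.37 and 0.664), and in the fit of male livers 0.22 and -0.25 (edgeR adjusted p = 0.775 and 0.846), with 1 WT NASH male. The part of sex in the Tkfc difference cannot be told apart from diet in WT, where chow holds no female. The KO NASH call was lost on leaving out any 1 library of the 2 groups except WT NASH replicate 4 (edgeR adjusted p = 0.00949) and KO NASH replicate 4, with a highest edgeR adjusted p of 0.11 without KO NASH replicate 5. Tkfc shares 596 of its 4617 exonic bases with Cyb561a3 and 328 with Ddb1 on the opposite strand, and the sources used here do not say whether counting used the strand.

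Sord (chr2:122234749-122265340, plus strand) encodes sorbitol dehydrogenase, which makes fructose from sorbitol in the polyol pathway. It was the most abundant of the 8 per kilobase of exonic sequence in every group, at 336 and 408 CPM per kb in WT on chow and the NASH diet and 236 and 333 CPM per kb in KO. Its spread was wide, from 367 to 1276 CPM within WT chow alone. No Sord comparison was called, and the lowest edgeR adjusted p was 0.364, for KO NASH against KO chow (log2 fold change 0.50, SE 0.326). In WT chow the 3 livers of negative length slope had 367 to 720 CPM and the other 2 had 1065 and 1276 CPM, and the part of the length slope in that spread was not tested.

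Gpi1 (chr7:34201330-34230336, minus strand) encodes glucose-6-phosphate isomerase, which turns glucose 6-phosphate into fructose 6-phosphate. WT livers had 90.3 ± 34.7 CPM on chow and 111 ± 29.8 CPM on the NASH diet, and KO livers 153 ± 43.9 and 138 ± 13.2 CPM (SD, n = 5). KO chow against WT chow had a log2 fold change of 0.76 (SE 0.283) and was not called (edgeR adjusted p = 0.126). The overlap of those groups rested on KO chow replicate 5, at 76.8 CPM, since the other 4 KO chow livers had 158 to 183 CPM and the WT chow livers 44.8 to 124 CPM. In WT chow the 3 livers of negative length slope had 44.8 to 92.0 CPM and the other 2 had 124 CPM each. In KO chow, of the 2 livers of negative slope, replicate 5 was the lowest of its group and replicate 4, at 170 CPM, lay among the other 3, at 158 to 183 CPM. Gpi1 shares 741 of its 6452 exonic bases with the predicted gene Gm26762 on the opposite strand.

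Pfkl (chr10:77986947-78010083, minus strand) encodes the liver subunit of phosphofructokinase, which commits fructose 6-phosphate to glycolysis. In WT chow it was at 19.4, 19.0, 15.2, 9.68 and 20.2 CPM. In WT NASH it was at 27.2, 24.2, 24.7, 13.5 and 24.97 CPM. The male WT NASH liver, the fourth, was again the low one. In KO chow Pfkl was at 14.2, 17.8, 19.98, 22.1 and 13.2 CPM. In KO NASH it was at 33.6, 31.1, 39.8, 35.0 and 32.7 CPM, above every liver of the other 3 groups. KO NASH against KO chow was 0.98 (SE 0.214, edgeR adjusted p = 0.0202), without overlap, as for 8.5% of all genes. With sex in the fit it was 1.01 (edgeR adjusted p = 0.0183), with sex and length slope 0.90 (edgeR adjusted p = 0.0103), and in male livers alone 0.97 (edgeR adjusted p = 0.117). Leaving out KO chow replicate 1 or 5 raised the edgeR adjusted p to 0.0555 or 0.0554. KO NASH was above WT NASH without overlap but was not called, at 0.59 (SE 0.213, edgeR adjusted p = 0.0861), while DESeq2 gave an adjusted p of 0.0454. Among males, the 4 KO NASH livers had 32.7 to 39.8 CPM and the 1 WT NASH liver, a library of negative length slope, had 13.5 CPM. WT NASH against WT chow was 0.46 (SE 0.214, edgeR adjusted p = 0.213), and the interaction of 0.53 (SE 0.301, edgeR adjusted p = 0.702) did not tell the genotypes apart.

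Pfkfb1 (chrX:150588229-150643878, plus strand) encodes the liver form of the bifunctional enzyme that makes and removes fructose 2,6-bisphosphate, the activator of phosphofructokinase. In WT it was at 59.8 ± 15.7 CPM on chow and 38.8 ± 12.0 CPM on the NASH diet, and in KO at 50.8 ± 9.52 and 43.0 ± 11.02 CPM (SD, n = 5). No comparison was called, the nearest being WT NASH against WT chow at -0.63 (SE 0.232, edgeR adjusted p = 0.115). Here too the WT NASH male, at 57.0 CPM, was apart from the 4 females, at 24.5 to 41.4 CPM, and it lay inside the WT chow range of 47.0 to 86.5 CPM. Its library was also the only one of WT NASH with a negative length slope, so sex and slope cannot be told apart there. Pfkfb1 shares 123 of its 4017 exonic bases with Apex2 on the opposite strand.

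Pklr (chr3:89136142-89146784, plus strand) encodes the pyruvate kinase of liver and red cells, which makes pyruvate from phosphoenolpyruvate, the compound that Pck1's product makes in the other direction. In WT chow the 5 livers had 40.6, 34.2, 39.6, 26.5 and 59.7 CPM. In WT NASH they had 140, 166, 130, 47.2 and 124 CPM, so that 4 of 5 were above every chow liver and the male, replicate 4, was within the chow range. In KO chow the values were 11.8, 9.20, 28.8, 10.2 and 23.3 CPM. In KO NASH they were 15.0, 22.7, 13.9, 34.9 and 12.4 CPM. The highest KO NASH liver was below the lowest WT NASH liver, and the KO groups overlapped each other. WT NASH against WT chow was 1.60 (SE 0.375, edgeR adjusted p = 0.0158). KO NASH against WT NASH was -2.62 (SE 0.389, edgeR adjusted p = 0.000465). KO chow against WT chow was -1.27 (SE 0.374) and just missed the threshold (edgeR adjusted p = 0.0507), while DESeq2 gave an adjusted p of 0.0134. KO NASH against KO chow was 0.25 (SE 0.369, edgeR adjusted p = 0.7), and the interaction was -1.35 (SE 0.522, edgeR adjusted p = 0.445).

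**Figure D2:**
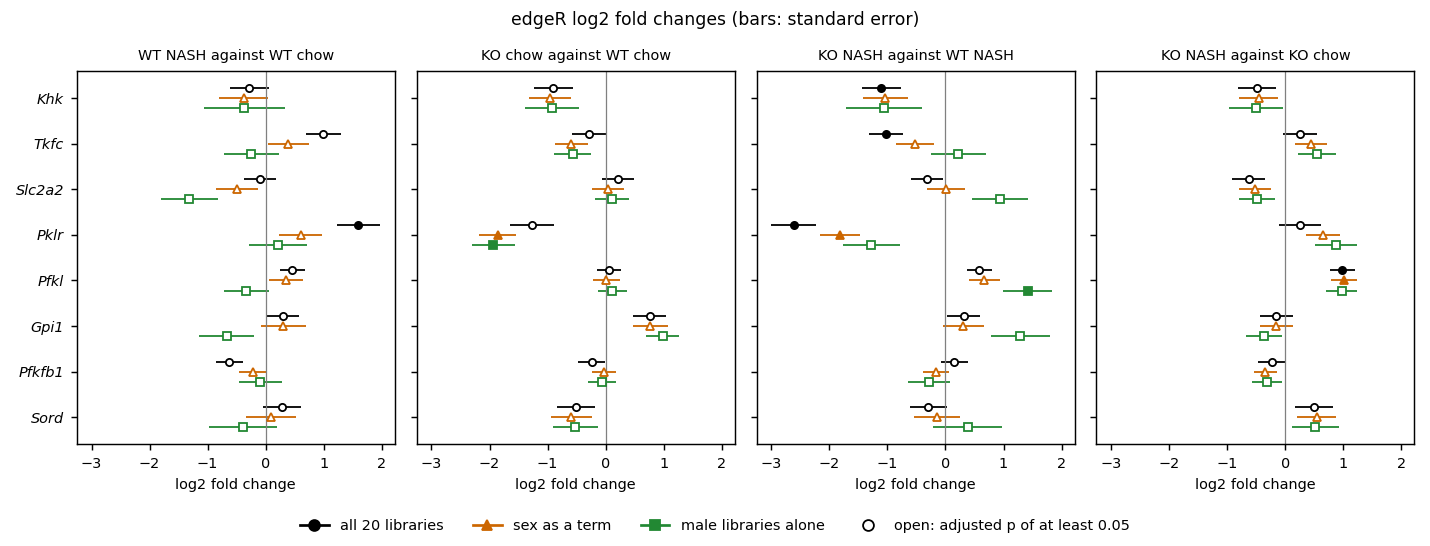
edgeR log2 fold changes of the 8 genes (horizontal axis, bars are standard errors) in 4 comparisons, for all 20 libraries, with sex as a term, and in male libraries alone. Filled symbols have an adjusted p under 0.05: in KO NASH against WT NASH the 3 filled circles are Khk, Tkfc and Pklr, and with sex as a term only Pklr is filled.

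Pklr was higher in the females than in the males of KO chow and WT NASH, but not apart by sex in KO NASH. The single WT NASH male, replicate 4, was also the only library of negative length slope in its group, so the 2 cannot be told apart there. The KO chow females had 23.3 and 28.8 CPM and the males 9.20 to 11.8 CPM. The WT NASH females had 124 to 166 CPM and the male 47.2 CPM. In KO NASH the female, at 22.7 CPM, was inside the range of the males, at 12.4 to 34.9 CPM. The female minus male difference, in the fit with sex as a term, was 1.12 on the log2 scale (SE 0.286, edgeR adjusted p = 0.0775), and with sex and length slope as terms 1.11 (SE 0.274, edgeR adjusted p = 0.0339), in comparisons that called 1.02% and 2.4% of genes. This comparison was added after the data were seen. None of the other 7 genes was called in it, the nearest being Pfkfb1, lower in females by -0.54 with both terms (edgeR adjusted p = 0.0986). With sex as a term the Pklr difference of WT NASH from WT chow was 0.61 (edgeR adjusted p = 0.499), and in males alone 0.21 (edgeR adjusted p = 0.877). The genotype difference stayed below 0 in these fits. On chow it was -1.86 with sex in the fit (edgeR adjusted p = 0.00216) and -1.94 in males alone (edgeR adjusted p = 0.00881), where 3 KO livers at 9.20 to 11.8 CPM were compared with 5 WT livers at 26.5 to 59.7 CPM. On the NASH diet it was -1.82 with sex in the fit (edgeR adjusted p = 0.00623), -1.28 in males alone (edgeR adjusted p = 0.098, with 1 WT male) and -2.60 in females alone (edgeR adjusted p = 0.0537, with 1 KO female). With sex as a term the interaction was 0.04 (edgeR adjusted p = 0.993). Pklr shares 711 of its 3236 exonic bases with Hcn3 on the opposite strand.

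**Figure D3:**
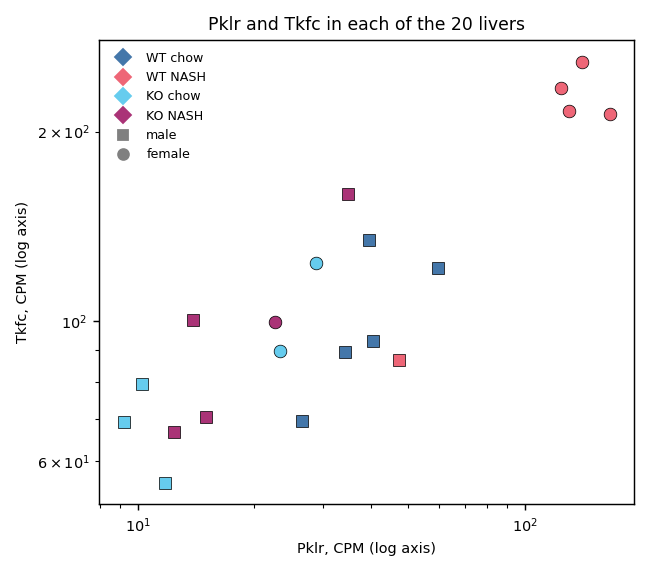
Tkfc against Pklr in each of the 20 livers (CPM, both axes log), coloured by group, with squares for male and circles for female libraries. The 4 WT NASH females are the highest of all livers on both axes, and the WT NASH male lies among the WT chow males.

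Per kilobase of exonic sequence, the order in WT chow was Sord (336 CPM per kb), Khk (125), Slc2a2 (41.0), Tkfc (21.97), Pfkfb1 (14.9), Gpi1 (14.0), Pklr (12.4) and Pfkl (2.50). Division by length leaves the negative length slope of 3 of the 5 WT chow libraries in place, and its part in the order was not tested. Neighbours in that order overlapped between livers except Khk from Slc2a2 and Pklr from Pfkl. In WT NASH Pklr was in place 5 at 37.5 CPM per kb, level with Slc2a2 at 38.3, while in KO NASH it was in place 7 at 6.12, overlapping Pfkl at 5.16. Khk kept the second place in every group by its mean, at 125 and 103 CPM per kb in WT on chow and the NASH diet and 66.9 and 47.8 CPM per kb in KO. In KO its livers overlapped those of Slc2a2, the next in order, on both diets. The ranges were 31.2 to 101 against 34.1 to 66.6 CPM per kb on chow. On the NASH diet they were 30.3 to 82.0 against 26.5 to 38.3 CPM per kb. Using the longest transcript in place of all exonic bases moved 8 of these 32 places.

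By correlation of log2 CPM over the 20 livers, among 8943 genes averaging 5 CPM or more, the 2 genes most like each member were Haao (Pearson r = 0.89) and Pecr (0.88) for Khk, Celsr1 (0.89) and Serpina6 (0.87) for Tkfc, Ugt1a1 (0.87) and Ctage5 (0.85) for Slc2a2, and Gbp10 and Cyp4f14 (0.92 each) for Pklr. They were Exoc4 (0.90) and Tars2 (0.89) for Pfkl, Mrps34 (0.97) and Anxa6 (0.96) for Gpi1, Nol8 and Slc30a9 (0.87 each) for Pfkfb1, and Rufy3 (0.93) and Tcea3 (0.92) for Sord. These are descriptions, over livers that share group, sex and length slope. After subtraction of the group means the value for Pklr and Gbp10 was 0.52, and that for Pklr and Cyp4f14 was 0.72, whereas the values for Gpi1 were 0.96 and 0.95.

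Within KO NASH, replicate 4 had the highest value of the group for Khk (147 CPM), Tkfc (159 CPM) and Pklr (34.9 CPM), and replicates 1 and 5 had the lowest for Khk and Tkfc. Gckr, among the other glycolytic genes listed, was lower in KO chow than in WT chow, at 45.6 ± 18.8 against 107 ± 31.0 CPM (SD, n = 5, log2 fold change -1.23, SE 0.301, edgeR adjusted p = 0.0213). The 5 KO chow livers had 22.4 to 65.9 CPM of Gckr and the 5 WT chow livers 79.7 to 160 CPM. On the NASH diet Gckr was at 53.0 to 113 CPM in KO and 84.8 to 178 CPM in WT, and the difference of -0.82 (SE 0.298) was not called (edgeR adjusted p = 0.0856).

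Of the 21 other glycolytic genes described, 19 were tested (Hkdc1 and Eno3 were not). In WT NASH against WT chow 1 rose (Aldoc), beside 5.93% of all genes called. In KO chow against WT chow 4 rose (Pfkp, Aldoa, Pgam1 and Eno1) and 1 fell (Gckr), beside 5.53% of all genes called. The median there was 0.30 on the log2 scale, against 0.00 for all genes. In KO NASH against WT NASH 2 rose (Pfkp and Aldoa), beside 9.65% of all genes called. None of the 19 was called by edgeR for KO NASH against KO chow or for the interaction. Aldoa, the aldolase of muscle and most other tissues, was at 83.5 ± 12.6 and 57.5 ± 2.77 CPM in WT on chow and the NASH diet, and at 165 ± 65.5 and 125 ± 32.5 CPM in KO (SD, n = 5). Its genotype difference was 0.99 on chow (SE 0.249, edgeR adjusted p = 0.0249) and 1.12 on the NASH diet (SE 0.25, edgeR adjusted p = 0.00876). Pfkp, the platelet type of phosphofructokinase, rose in KO by 1.397 on chow (SE 0.326, edgeR adjusted p = 0.017) and by 1.14 on the NASH diet (SE 0.321, edgeR adjusted p = 0.0301), at levels of 3.21 to 10.1 CPM in the group means. Eno1, an enolase, rose in KO chow by 1.12 (SE 0.292, edgeR adjusted p = 0.0292). Aldoc, the brain aldolase, rose with the NASH diet in WT from 2.28 to 5.43 CPM (1.23, SE 0.29, edgeR adjusted p = 0.0166).

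Of 5 other genes of fructose and polyol metabolism (Akr1b3, Glyctk, Slc2a5, Aldh2 and Akr1a1) edgeR called none in any comparison. Of 8 other glucose transporter genes 5 were tested and edgeR called none in any comparison, and none of the 3 genes of the opposing steps of glucose output (G6pc, Fbp1 and Slc37a4) was called in any, with medians of -0.65 in WT and -0.78 in KO for the diet on the log2 scale, against 0.01 and -0.02 for all genes.

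Among 13 regulators of sugar-responsive genes and their targets, 1 rose in WT NASH against WT chow (Srebf1), beside 5.93% of all genes called. In KO chow against WT chow 1 rose (Txnip) and 2 fell (Mlxipl and Thrsp), beside 5.53% of all genes called. In KO NASH against WT NASH 1 rose (Txnip) and 3 fell (Mlxipl, Srebf1 and Thrsp), beside 9.65% of all genes called. None was called by edgeR for KO NASH against KO chow or for the interaction. Mlxipl encodes ChREBP. It was at 95.2 ± 16.1 and 163 ± 40.3 CPM in WT on chow and the NASH diet, and at 41.6 ± 13.9 and 69.6 ± 40.1 CPM in KO (SD, n = 5). It fell with the knockout by 1.19 on chow (SE 0.325, edgeR adjusted p = 0.0367) and by 1.23 on the NASH diet (SE 0.325, edgeR adjusted p = 0.0231) on the log2 scale. Thrsp, a lipogenic gene that responds to sugar and thyroid hormone, had medians of 18.0 and 88.3 CPM in WT on chow and the NASH diet and 4.86 and 3.29 CPM in KO. WT chow ran from 5.50 to 25.1 CPM in 4 livers, with replicate 5 at 93.5 CPM. Thrsp differed by -3.90 between KO NASH and WT NASH (SE 0.729, edgeR adjusted p = 0.00251), and by -4.85 without KO NASH replicate 4. On chow it differed by -2.47 (SE 0.691, edgeR adjusted p = 0.041), and without WT chow replicate 5 by -1.43, which was not called (edgeR adjusted p = 0.19). Srebf1, which encodes the insulin-responsive factor SREBP-1, was at 19.0 ± 3.40 CPM in WT chow and 116 ± 40.6 in WT NASH (2.61, SE 0.31, edgeR adjusted p = 7.41e-05). That diet difference was 2.06 with sex in the fit (edgeR adjusted p = 0.00579), and in male livers alone, with 1 WT NASH male, it was 1.47 and not called (edgeR adjusted p = 0.0771). Srebf1 was at 59.5 ± 14.9 CPM in KO NASH (-0.97 from WT NASH, SE 0.294, edgeR adjusted p = 0.0417), and this difference was 0.032 in male livers alone, again with 1 WT NASH male, replicate 4, a library of negative length slope. Txnip, a sugar-induced inhibitor of glucose uptake and a known ChREBP target, went the other way from Pklr: it was higher in KO by 0.91 on chow (SE 0.267, edgeR adjusted p = 0.0486) and by 0.94 on the NASH diet (SE 0.267, edgeR adjusted p = 0.0309). Many of these genotype calls were lost on leaving out 1 library. On chow this held for 17 of the 20 libraries for Txnip, 8 for Thrsp, 7 for Mlxipl (WT chow replicates 1, 2, 3 and 5 and KO chow replicates 1, 2 and 4), and 5 for Eno1 (WT chow replicates 3 and 4 and KO chow replicates 1, 2 and 4). It held for 3 for Gckr (WT chow replicate 5 and KO chow replicates 1 and 2), 3 for Aldoa (WT chow replicate 4 and KO chow replicates 1 and 2) and 1 for Pfkp (KO chow replicate 1). On the NASH diet it held for 9 for Srebf1, 7 for Txnip, 6 for Pfkp and 3 for Mlxipl (KO NASH replicates 1, 3 and 5), and for none for Aldoa and Thrsp. With sex in the fit, KO NASH against WT NASH was no longer called for Mlxipl (-0.79, edgeR adjusted p = 0.192), Srebf1 (-0.56, edgeR adjusted p = 0.315), Txnip (0.93, edgeR adjusted p = 0.108), Pfkp (0.83, edgeR adjusted p = 0.178) or Aldoa (0.68, edgeR adjusted p = 0.0982), and stayed called for Thrsp (-3.54, edgeR adjusted p = 0.0168). With sex and length slope both in the fit Srebf1 was called (-0.77, edgeR adjusted p = 0.031). The female minus male difference was 0.66 for Mlxipl and 0.63 for Srebf1 with sex as a term, and neither was called (edgeR adjusted p = 0.575 and 0.541). For Aldoa it was -0.67 in the fit with sex (edgeR adjusted p = 0.173), and -0.67 and called in the fit with sex and length slope (edgeR adjusted p = 0.0491).

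**Figure D4:**
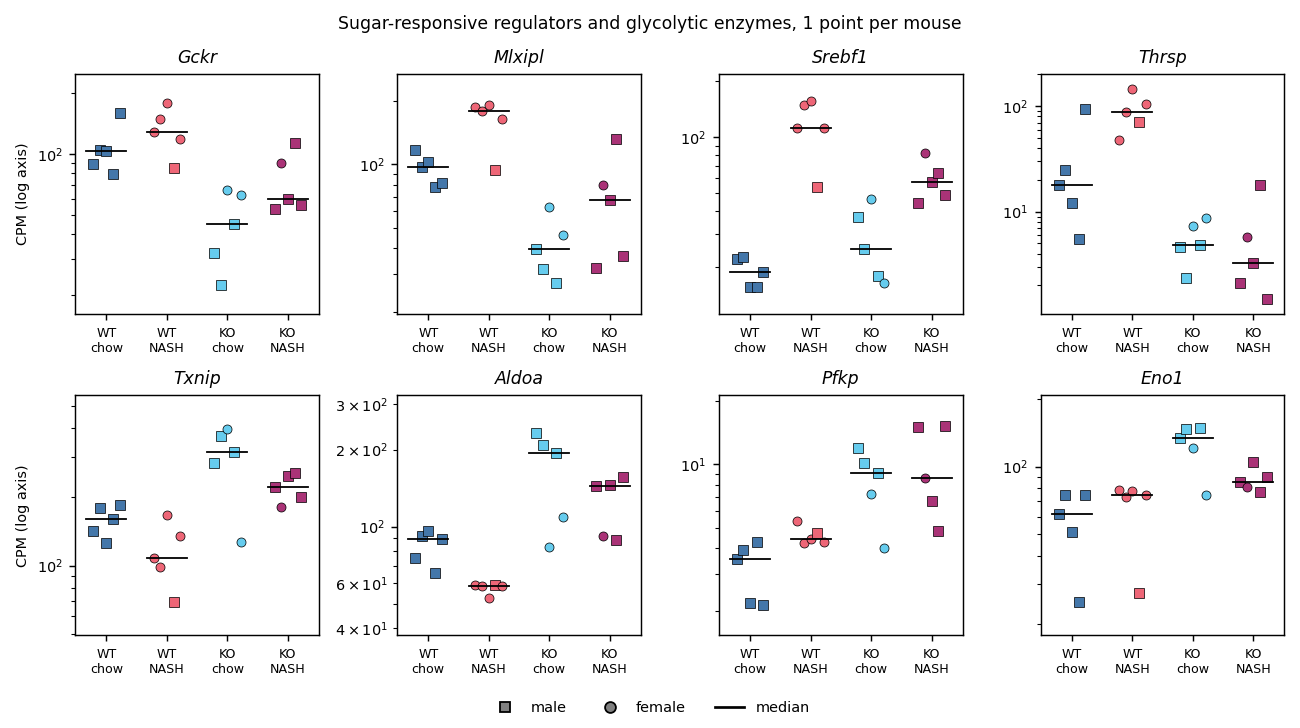
CPM (log axis, a separate scale per panel) of Gckr, Mlxipl, Srebf1, Thrsp, Txnip, Aldoa, Pfkp and Eno1 in each liver, with squares for male and circles for female libraries and a bar at each group's median. For Gckr the KO chow livers span 22.4 to 65.9 CPM and the WT chow livers 79.7 to 160 CPM.

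Markers of feeding state, time of day and other cells moved with some of these comparisons, and their part in the results above was not tested. Over all genes, 5.93% were called in WT NASH against WT chow and 5.53% in KO chow against WT chow. The share was 9.65% in KO NASH against WT NASH and 3.29% in KO NASH against KO chow. Of 11 circadian genes 2 were higher in WT NASH than in WT chow, Npas2 and Arntl (2.91 to 19.6 CPM), and in KO NASH against WT NASH Arntl was lower (7.31 CPM) and Dbp and Ciart were higher. Leaving out 1 library lowered the WT mean of Ciart and Npas2 by over 1.5 times (Ciart from 3.76 to 2.51 CPM without WT NASH replicate 3, Npas2 from 0.240 to 0.137 CPM without WT chow replicate 2). The 11 genes summed to 213 to 475 CPM on chow and 289 to 394 CPM on the NASH diet in WT, and to 178 to 328 and 312 to 403 CPM in KO. Of 7 genes of the fasting response, 1 was higher in KO chow than in WT chow (Pdk4, at 13.1 CPM against 177 CPM, or 114 CPM without KO chow replicate 2 at 426 CPM) and 1 in KO NASH than in WT NASH (Fgf21, 3.23 to 11.8 CPM). The summed level of those 7 genes was 4348 to 7311 CPM on chow and 1412 to 4288 CPM on the NASH diet in WT, and 6911 to 10150 and 4601 to 6023 CPM in KO. Of 7 hepatocyte markers, summed at 42476 to 117221 CPM over all livers, only Serpina1c was called, lower in KO on both diets. Of 8 macrophage markers 1 (Cd68) was higher in WT NASH and in KO chow than in WT chow, with sums of 285 to 1275 CPM on chow and 404 to 1257 CPM on the NASH diet in WT, and 439 to 2016 and 328 to 463 CPM in KO. Of 6 endothelial markers 2 (Lyve1 and Kdr) were higher in KO NASH than in WT NASH, with sums of 167 to 283 against 123 to 193 CPM. Of 7 stellate and myofibroblast markers 1 (Col1a1) and of 5 cholangiocyte markers 1 (Sox9) were higher in KO NASH than in KO chow, with sums of 325 to 482 against 209 to 975 CPM and of 56.9 to 262 against 36.7 to 253 CPM. The KO chow mean of Col1a1 was 3.69 CPM, and 2.39 CPM without replicate 2. Of 8 B and T cell markers 1 (Cd3e) was higher in WT NASH than in WT chow, with sums of 6.71 to 11.7 against 4.32 to 10.6 CPM. Of 5 red cell genes 2 (Hbb-bs and Hbb-bt) were lower on the NASH diet in both genotypes, and red cells also express Pklr. The WT chow mean of Hbb-bt was 12.5 CPM, and 8.29 CPM without replicate 2. The sums were 81.4 to 244 CPM on chow and 25.01 to 178 CPM on the NASH diet in WT, and 89.4 to 181 and 34.4 to 85.5 CPM in KO. Of 4 adipose genes only Cfd was above 1 CPM in any liver, and it was higher in KO NASH than in WT NASH, with sums of 3.59 to 54.5 against 0.452 to 0.968 CPM. KO NASH replicate 4 had 54.3 CPM of Cfd, and the group mean was 16.3 CPM with it and 6.77 CPM without it. Of 5 pancreas genes 4 (Prss2, Cpa1, Pnlip and Amy2a5) stayed under 0.1 CPM in every liver while Cela1 was lower in KO NASH than in WT NASH, with sums of 3.32 to 4.44 against 11.7 to 107 CPM. WT NASH replicate 4 was the highest, and the WT NASH mean of Cela1 was 33.5 CPM with it and 15.1 CPM without it. The 5 skeletal muscle genes summed to less than 1 CPM in every liver. Of 4 proliferation genes 1 (Mki67) was higher in WT NASH than in WT chow, with sums of 4.77 to 12.5 against 3.73 to 7.40 CPM.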

How the data were processed

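Liver RNA of 20 mice was sequenced, and the authors deposited a table of raw counts per gene symbol, 1 column per library. Per the submitters' processing notes, HISAT2 2.0.4 and GRCm38 were used. The sources used here do not name the counting program, annotation or strand setting. Columns that call the diet HFD were taken as the NASH groups, since all others name a chow diet.

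The deposited counts were fitted in edgeR 4.0.16, under R 4.3.3 (filterByExpr, minimum count 10; TMM; 1 quasi-likelihood fit of 4 groups, 16 residual degrees of freedom; Benjamini-Hochberg over 14440 genes). The common biological coefficient of variation was 39.0%. SEs were derived from the fold change and F statistic. CPM used TMM-scaled library sizes, and 0.5 was added before logs in correlations. A library was taken as male at 100 or more counts summed over 4 Y-linked genes. The length slope is that of a library's log2 CPM, less the average library, on log2 exonic length, over 9498 genes. GENCODE M21 gave positions and lengths, the latter for 13477 (93.3%) of tested genes.

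Named genes were the 8 members; Gckr, Mlxipl, Srebf1 and Txnip; up to 4 further called genes of smallest p in each list; and the 2 genes most correlated with each member. Pgam1 and the genes of the marker lists were named outside that rule because they were called. Some listed genes are not reported here and enter none of the list counts or medians. Members and lists were chosen with earlier results of these data known. Alternatives included DESeq2 1.42.0 and limma 3.58.1 (voom). The procedure was tested on simulated counts.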

Additional observations from a re-analysis of the deposited data

Results flagged for a closer look

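The 8 genes in 4 groups gave 32 sets of 5 values. In 7 of the 32 sets the highest or lowest value stood apart from the rest by a gap of more than 0.71 of the set's range (Dixon's test), where chance gives about 1 in 20 for independent sets. The sets share livers and are not independent. Of the 7 values, 4 were the lowest WT NASH values and came from replicate 4, the only male of that group and the only one there of negative length slope: Tkfc at 86.9 CPM (next 213), Slc2a2 at 96.6 CPM (next 236), Pfkl at 13.5 CPM (next 24.2) and Gpi1 at 57.8 CPM (next 118). In WT NASH replicate 3, Khk was the highest of its group at 212 CPM (next 185). In WT chow replicate 5, a library of negative length slope, Khk was at 424 CPM (next 204). In KO chow replicate 5, also of negative slope and female, Gpi1 was at 76.8 CPM (next 158).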

How the results depend on the processing

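The 5 comparisons gave 40 log2 fold changes of the 8 genes, and of their 1368 values under alternatives 1253 kept direction and side of the threshold, 38 lost a call, 36 gained one and 41 changed sign. The cause of these changes was not tested. The number of the 8 genes called in WT NASH against WT chow was 2 with a filter of a mean of at least 5 CPM, with DESeq2, with the length slope as a term and without the 6 libraries of negative slope (7.61%, 10.4%, 12.3% and 4.88% of all genes called), 6 with limma voom (40.6%), and 0 with sex, with sex and slope, and in males alone (1.11%, 5.07% and 0.596%). In KO chow against WT chow it was 1 with RLE size factors, with scaling without the 20 most abundant genes, with DESeq2, with sex as a term, with the slope, with both and in males alone, and 3 with limma voom (40.4%), the share of all genes being 5.57% to 13.9% under the others. In KO NASH against WT NASH it was 1 (Pklr) without a low-count filter, with sex, with sex and slope and with KO NASH replicates 1 and 5 summed (4.33% to 10.4% of all genes). Males alone left 1 WT NASH library and females alone 1 KO NASH library, so their counts are left out here. Without the libraries of negative slope the number was 5 (20.3%). In KO NASH against KO chow it was 0 in males alone and in females alone (0.37% and 0%), and 2 without the libraries of negative slope (7.69%). For the interaction it was 1 with limma voom (13.5%). Leaving out each library in turn gave 1 to 3, 0 to 2, 1 to 3 and 0 to 1 in the first 4 comparisons. The genes called in the whole table then ranged from 414 to 1712, 347 to 1219, 714 to 1727 and 147 to 792, of 14599 to 14704 tested.

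The called genes of the whole table ranged over settings from 95 to 5866, 297 to 5836, 21 to 3434, 0 to 1835 and 4 to 1949 in the 5 comparisons. After subtraction of group means, same-numbered libraries correlated more than others between some groups. Mean r was 0.16 against -0.058 between the WT diets, 0.31 against -0.087 between the chow genotypes and 0.26 against -0.045 between WT NASH and KO chow. Of 5 same-numbered pairs, 3, 4 and 3 were above 0.1. Between the NASH genotypes 1 of 5 was, and between the KO diets 0. With the replicate block the 8 genes gave 1, 0, 2, 1 and 0 calls, beside 7.11%, 6.11%, 10.1%, 3.7% and 0.0277% of all genes. Tkfc in KO NASH against WT NASH was lost there at an edgeR adjusted p of 0.0517.

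Log2 fold changes that changed sign, for WT NASH against WT chow, were in males alone Tkfc at -0.25, Pfkl at -0.33, Gpi1 at -0.67 and Sord at -0.39, without the libraries of negative slope Khk at 0.045 and Sord at -0.15, and with limma voom Slc2a2 at 0.17. For KO chow against WT chow they were, with sex and slope, Slc2a2 at -0.0076, Pfkl at -0.033 and Pfkfb1 at 0.0091, and without the libraries of negative slope Pfkl at -0.14. For KO NASH against WT NASH they were, in males alone, Tkfc at 0.22, Slc2a2 at 0.94, Pfkfb1 at -0.29, Sord at 0.38 and Srebf1 at 0.032, with sex as a term Slc2a2 at 0.0053 and Pfkfb1 at -0.17, with sex and slope Pfkfb1 at -0.11, and in females alone Pfkfb1 at -0.082. For KO NASH against KO chow in females alone they were Tkfc at -0.084, Pklr at -0.18 and Gpi1 at 0.20. For the interaction they were, in males alone, Tkfc at 0.79, Slc2a2 at 0.83, Pklr at 0.66, Gpi1 at 0.31 and Pfkfb1 at -0.22, with sex as a term Tkfc at 0.057, Pklr at 0.043 and Pfkfb1 at -0.13, with sex and slope Tkfc at 0.054, Pklr at 0.034 and Pfkfb1 at -0.12, and with limma voom Sord at -0.26. Leaving out single libraries gave ranges across 0 for Khk (-0.43 to 0.083) and Slc2a2 (-0.26 to 0.088) in WT NASH against WT chow, Pfkl in KO chow against WT chow (-0.071 to 0.17), Pklr in KO NASH against KO chow (-0.055 to 0.54) and the Sord interaction (-0.036 to 0.42).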
